A study of Mus musculus with 7 samples.

Results

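The vascular endothelial growth factor (VEGF) receptor genes Flt1 and Kdr, the neuropilin genes Nrp1 and Nrp2 and the ligand gene Vegfa were followed as 5 of the 17784 genes listed over 7 single-cell libraries of C57BL/6 mouse cells. They were chosen by name, with earlier results of these data known, so their levels are a description. The comparisons set fibroblasts or pericytes converted toward oligodendrocyte progenitor cells (iOPCs) beside their donor cells and beside primary progenitors. MEF-2F and MEF-3F were embryonic fibroblasts transduced with viruses carrying 2 factors (Olig2 and Sox10) or 3 factors (Olig2, Sox10 and Nkx6.2), and MEF were the same kind of fibroblast without transduction. PC-2F and PC-3F were cerebral pericytes given the same 2 or 3 factors, PC were pericytes without transduction, and pOPC were primary oligodendrocyte progenitors. Donor cells were grown in their own media, and converted cells and pOPC in OPC medium, so the medium and the factors cannot be told apart. All were captured on the ddSEQ droplet system, and 3′ ends were counted by unique molecular identifiers (UMIs). Each population was 1 library, so no difference below was tested, and every interval is a 95% interval for counting error alone.

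VEGF ligands act through receptor tyrosine kinases on the cell surface. Kdr encodes VEGFR2, the main signalling receptor of endothelial cells, and Flt1 encodes VEGFR1, which binds VEGF-A tightly but signals weakly and also exists as a secreted trap. Neuropilins are co-receptors with a short cytoplasmic tail that bind VEGF and class 3 semaphorins, the guidance cues that signal through plexins. In brain, VEGF-A and semaphorins are known to act on the migration of oligodendrocyte progenitors, which read semaphorins through neuropilins.

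The libraries held 82 to 290 kept cells and 230220 to 1292620 UMIs, with median depths of 1866 (MEF-3F) to 6259 (PC-2F) UMIs per cell. All levels are UMIs scaled to the library total (CPM), read from coded values whose decoding is an inference. Each table lists only genes with a UMI in that library, so a gene without a row there, such as Flt1 in MEF-2F, MEF-3F, PC-3F and pOPC, was taken as 0 UMIs. Such a gene was held below the level of 3 UMIs, which ran from 2.32 CPM in PC to 13.0 CPM in MEF-2F. No cell barcode was shared between libraries. All 9 progenitor genes with a row had UMIs in pOPC and in each converted library. All 8 listed fibroblast genes had UMIs in MEF (17610 CPM summed), but so did 7 of 8 in PC (4691 CPM). The 8 listed pericyte genes all had UMIs in MEF (542 CPM summed), whereas in PC 5 of 8 did (361 CPM), with Rgs5, Kcnj8 and Abcc9 at 0, so these genes did not set PC apart from MEF. Smooth muscle genes summed to 15495 CPM in MEF and 98.3 CPM in PC, and 3 mesothelial genes (Msln, Krt19 and Krt20) summed to 8.86 CPM in MEF and 601 CPM in PC; their part in the donor levels was not tested. In MEF, 7 of 131 cells fell in a cluster made mostly of PC-2F cells in a joint clustering, and results over MEF that rest on them are given with and without them.

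Promoters are shown for the genes that were found in donor cultures and almost nowhere else, Flt1, Kdr and Vegfd (listed under its older symbol Figf), and for Nrp1, which had UMIs in every library. Each runs from 250 bases before to 50 bases after the gene's start in RefSeq (build GRCm38.p6), 5′ to 3′ on the gene's strand. Capitals mark exact matches, on either strand, to the motifs searched: the hypoxia response element core ACGTG, the E-box CACGTG that contains this core, the further E-boxes CAGCTG as well as CATATG, the Sox motifs ACAAAG as well as ACAATG, and the Sp1 motif GGGCGG. The stretches are chr5:147725962-147726261 on the minus strand for Flt1, chr5:75978406-75978705 on the minus strand for Kdr, chrX:164373272-164373571 on the plus strand for Vegfd and chr8:128358823-128359122 on the plus strand for Nrp1.
Flt1: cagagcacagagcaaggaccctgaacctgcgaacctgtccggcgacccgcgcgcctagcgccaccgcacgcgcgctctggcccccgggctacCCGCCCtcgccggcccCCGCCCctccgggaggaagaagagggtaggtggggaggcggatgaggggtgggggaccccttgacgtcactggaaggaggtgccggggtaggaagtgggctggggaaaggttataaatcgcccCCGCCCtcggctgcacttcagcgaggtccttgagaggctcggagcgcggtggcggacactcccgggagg
Kdr: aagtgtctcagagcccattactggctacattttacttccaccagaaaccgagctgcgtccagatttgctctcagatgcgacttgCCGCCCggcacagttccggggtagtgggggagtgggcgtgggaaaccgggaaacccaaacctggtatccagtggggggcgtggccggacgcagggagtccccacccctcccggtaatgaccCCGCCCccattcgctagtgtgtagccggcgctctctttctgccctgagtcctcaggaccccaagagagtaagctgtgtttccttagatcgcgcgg
Vegfd: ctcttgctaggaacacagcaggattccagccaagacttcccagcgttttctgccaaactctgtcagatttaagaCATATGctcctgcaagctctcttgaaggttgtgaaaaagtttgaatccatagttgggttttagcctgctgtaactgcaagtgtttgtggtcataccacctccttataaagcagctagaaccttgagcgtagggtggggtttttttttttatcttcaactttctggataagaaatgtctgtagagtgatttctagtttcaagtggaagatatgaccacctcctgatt
Nrp1: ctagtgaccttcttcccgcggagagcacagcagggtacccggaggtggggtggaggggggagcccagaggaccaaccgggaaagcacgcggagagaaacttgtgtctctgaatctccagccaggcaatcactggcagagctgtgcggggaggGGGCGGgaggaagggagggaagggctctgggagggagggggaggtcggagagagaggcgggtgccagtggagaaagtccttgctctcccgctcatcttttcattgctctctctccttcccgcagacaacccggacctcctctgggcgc
The GGGCGG motif stood 3 times in the Flt1 window, 2 times in that of Kdr and 1 time in that of Nrp1, and 35.7% of the 32851 promoters of this length held it. No other motif of the set matched these 3 windows. The Vegfd window had no GGGCGG and 1 CATATG, which 3.91% of promoters held. Flt1, Kdr and Vegfd also differed in base composition, with 70.7% G and C bases for Flt1 and 60.7% for Kdr against 42% for Vegfd, around a median of 52.7% over all promoters. The windows for Nrp2 (chr1:62703067-62703366, plus strand, 5 matches to GGGCGG, overlapping ones included) and Vegfa (chr17:46032328-46032627, minus strand, 2 matches) are not printed. A second annotated Vegfa start (chr17:46025114-46025413, minus strand) held the only ACGTG among the members, a motif found in 19.6% of promoters.

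Flt1 was found in both donor cultures, and Kdr mainly in PC. Flt1 lies on chromosome 5 at 147561604 to 147726011 (GRCm38, minus strand), with 2 protein-coding transcripts that end at different places, so 3′ counts per gene do not separate the membrane and the shorter form. The level of Flt1 was 0 CPM for MEF-2F, 0 for MEF-3F and 114 for MEF, 0.834 for PC-2F, 0 for PC-3F and 234 for PC, and 0 for pOPC. In counts, PC held 303 of the 394 Flt1 UMIs, MEF held 90 and PC-2F held 1. With 0 set at 3 UMIs, Flt1 fell at least 8.74-fold in MEF-2F below MEF, and at least 17.4-fold in MEF-3F. Against PC it was 281-fold lower in PC-2F (interval 50.1 to 11143, from 1 UMI) and at least 49.6-fold lower in PC-3F. Between the donors, Flt1 was 2.06-fold lower in MEF than in PC (interval 1.62 to 2.63).

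Kdr (chromosome 5, 75932827 to 75978458, minus strand) was rarer. Its level was 0 CPM for MEF-2F, 2.18 for MEF-3F (1 UMI) and 5.06 for MEF (4 UMIs), 0 for PC-2F, 0 for PC-3F and 24.0 for PC (31 UMIs), and 0 for pOPC. The drop below PC was at least 9.59-fold for PC-2F and at least 5.08-fold for PC-3F, and Kdr was under the count needed for a comparison in the MEF series. Of the Kdr UMIs of PC, 1 lay in the first of its 2 barcode blocks (6.26 CPM) and the other 30 in the second (26.5 CPM), and with the first block alone Kdr was too rare to compare. MEF stood 4.74-fold below PC (interval 1.67 to 18.5).

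Flt1 UMIs were found in more donor cells than Kdr UMIs, which 3.00% of thinned PC cells had (7.93% unthinned). After thinning each cell to 1000 UMIs, 0 of 178 PC-2F cells and 0 of 146 PC-3F cells had a Flt1 UMI, against 18.4% of 267 PC cells, and a count of 0, set at 3 cells, allows up to 1.69% and 2.05%. In MEF-2F and MEF-3F the counts were 0 of 75 and 0 of 122 cells (up to 4% and 2.46%), against 10.1% of 129 MEF cells. Without thinning, 44.1% of PC cells and 30.5% of MEF cells had a Flt1 UMI. Flt1 was not detected in pOPC, with 0 of 134 cells unthinned, which allows up to 2.24%. Endothelial cells are the best known site of both receptors, and the summed level of the 8 endothelial genes with a row in any table was also highest in the donors. It was 13.0 CPM for MEF-2F, 15.3 for MEF-3F and 63.3 for MEF, 28.3 for PC-2F, 31.5 for PC-3F and 79.7 for PC, and 1.58 for pOPC. That order rested on Ly6c1, with 53.2 CPM in MEF and 64.2 CPM in PC, while Pecam1 had 0 UMIs in MEF and 3 in PC. Vwf had 0 UMIs in both donors but 10 in PC-2F and 3 in PC-3F. Egfl7 was at 15.8 CPM in PC-2F, 18.9 in PC-3F and 3.87 in PC. Emcn was at 3.33 CPM in PC-2F, 7.87 in PC-3F and 7.74 in PC. Of the 12 listed endothelial genes, Cdh5, Cldn5, Tie1 and Slco1a4 are left out of these sums and were not analysed here, and 4 of the other 8 had UMIs in MEF and 5 in PC. In PC, the 72 cells with any endothelial marker UMI had 176 CPM of Flt1, and the 218 cells without one had 259 CPM. This split mostly followed Ly6c1, with a UMI in 62 PC cells, against 8 for Emcn, 5 for Egfl7, 3 for Pecam1 and 2 for Esam. It therefore cannot set endothelial cells apart. The part of endothelial cells in the donor levels was not tested.

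**Figure D1:**
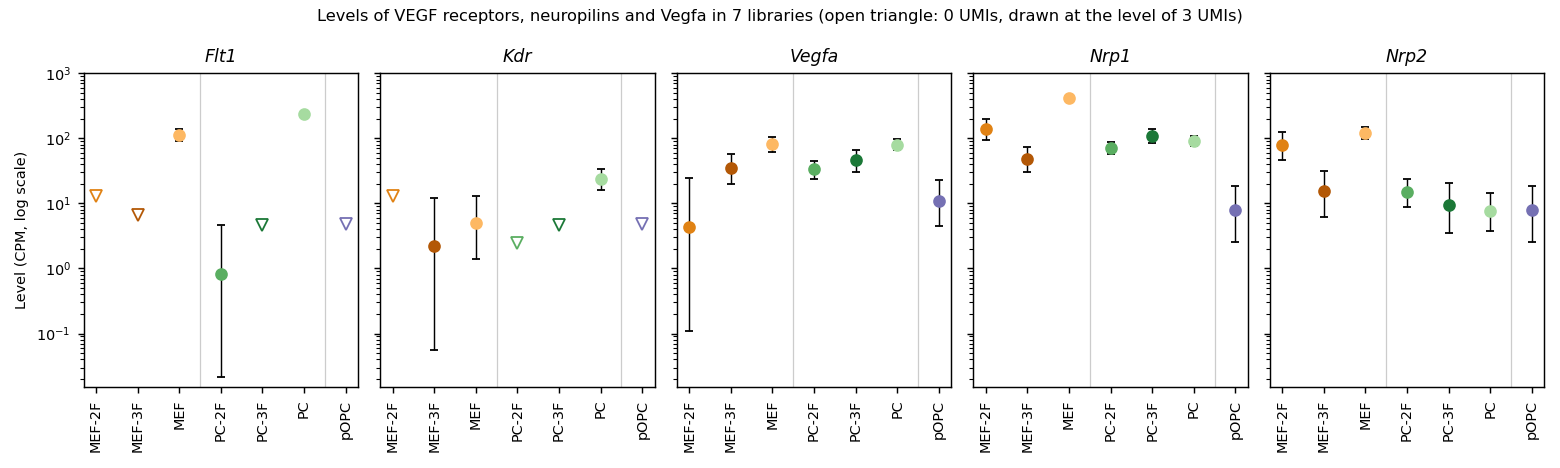
Level of each gene in 7 libraries, in CPM on a log axis, with exact Poisson 95% intervals for counting error; open triangles mark 0 UMIs and are drawn at the level of 3 UMIs. Flt1 is high in the donor libraries MEF (114 CPM) and PC (234 CPM) alone, and Kdr is highest in PC, while Nrp1 and Vegfa have UMIs in every library.

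Vegfa, the ligand of both receptors, had UMIs in every library and was called lower than in the donor in MEF-2F, MEF-3F and PC-2F. It lies on chromosome 17 at 46016993 to 46032369 (minus strand). Its level was 4.34 CPM for MEF-2F (1 UMI), 34.9 for MEF-3F and 81.0 for MEF, 33.3 for PC-2F, 45.6 for PC-3F and 79.7 for PC, and 11.1 for pOPC. MEF stood at 1.02-fold of PC, with an interval of 0.732 to 1.4. Vegfa was 18.7-fold lower in MEF-2F (interval 3.23 to 748), 2.32-fold lower in MEF-3F (1.33 to 4.30), 2.39-fold lower in PC-2F (1.64 to 3.53) and 1.75-fold lower in PC-3F (1.15 to 2.74), the last under the 2-fold limit for a call. In the first barcode block of MEF-3F alone, the log2 ratio over MEF was -0.71 and no longer called. The share of cells with a Vegfa UMI was below the donor at each depth of thinning, and unthinned, in MEF-2F and PC-2F. It was 1.33% in MEF-2F and 3.37% in PC-2F at 1000 UMIs, and 1.22% and 19.6% unthinned. For MEF-3F and PC-3F the order against the donor depended on the depth of thinning. At 1000 UMIs per cell the share was 4.1% in MEF-3F and 3.88% in MEF, and 7.53% in PC-3F and 6.74% in PC. It was lower in the converted cells at 500 UMIs (1.86% in MEF-3F and 3.82% in MEF, 1.36% in PC-3F and 4.14% in PC) and at 2000 UMIs (4.17% and 15.9%, 7.46% and 13.2%). Unthinned, it was 9.94% in MEF-3F and 32.1% in MEF, and 15.6% in PC-3F and 25.5% in PC. The unthinned shares of MEF-3F and MEF had intervals that did not overlap (5.79% to 15.6% and 24.2% to 40.8%). The same was true of MEF-2F and MEF, unthinned (0.0309% to 6.61% in MEF-2F) and at 2000 UMIs (0% to 7.55% and 9.54% to 24.2%). All other intervals of a converted library and its donor overlapped. In pOPC the share was 0.862% at 1000 UMIs. Over pOPC, Vegfa was 3.16-fold higher in MEF-3F (interval 1.23 to 9.08), 3.02-fold in PC-2F (1.34 to 7.98) and 4.13-fold in PC-3F (1.77 to 11.2).

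As a level over the whole library, Nrp1 was above pOPC in all 4 converted libraries. The gene lies on chromosome 8 at 128358604 to 128503363 (plus strand) and overlaps an exon of the microRNA gene Mir1903 on the same strand. Its level was 139 CPM for MEF-2F, 48.0 for MEF-3F and 413 for MEF, 71.7 for PC-2F, 109 for PC-3F and 92.1 for PC, and 7.90 for pOPC. The order of the levels put MEF first and pOPC last, each apart from the next library beyond counting error. Among the 5 libraries between them no step from 1 to the next went beyond counting error. Some wider pairs among the 5 did, such as MEF-3F at 2.26-fold below PC-3F (interval 1.38 to 3.84). Nrp1 was 2.97-fold lower in MEF-2F than in MEF (interval 2.06 to 4.41) and 8.60-fold lower in MEF-3F (5.58 to 13.9). Against PC the ratio was 0.779 in PC-2F (0.583 to 1.04) and 1.18 in PC-3F (0.864 to 1.6), and both intervals included 1. Over pOPC the difference was 17.6-fold in MEF-2F (interval 6.81 to 57.9), 6.08-fold in MEF-3F (2.25 to 20.5), 9.08-fold in PC-2F (3.74 to 28.7) and 13.7-fold in PC-3F (5.62 to 43.7). Of thinned cells, 14.7% of 75 in MEF-2F, 5.74% of 122 in MEF-3F and 31.8% of 129 in MEF had an Nrp1 UMI. The shares were 8.99% of 178 in PC-2F, 11% of 146 in PC-3F and 12% of 267 in PC, and 0 of 116 in pOPC, which allows up to 2.59%. Unthinned, the share in pOPC was 2.99%, against 69.5% in MEF.

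Nrp2, the second neuropilin, was highest in MEF and MEF-2F. The gene lies on chromosome 1 at 62703285 to 62818695 (plus strand), and its protein-coding transcripts have 3 different ends. Its level was 78.2 CPM for MEF-2F, 15.3 for MEF-3F and 122 for MEF, 15 for PC-2F, 9.44 for PC-3F and 7.74 for PC, and 7.90 for pOPC. Nrp2 was 15.7-fold higher in MEF than in PC (interval 8.18 to 33.8), and it was 5.21-fold higher in MEF-2F than in PC-2F (2.56 to 10.6). Against MEF, Nrp2 was 7.96-fold lower in MEF-3F (3.72 to 20.3), while MEF-2F was 1.55-fold lower with an interval that included 1 (0.933 to 2.73). All 18 Nrp2 UMIs of MEF-2F came from the first of the 2 barcode blocks joined in that matrix, which holds 65 of its 82 cells. The second block, with 17 cells and 49135 UMIs, had 0 Nrp2 UMIs, which allows up to 75.1 CPM. The level was under 20 CPM in PC-2F, PC-3F, PC and pOPC, too low for a comparison among them.

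Counts of members against all genes put these values in context. A call needed a 2-fold difference whose interval left out 1, with at least 10 UMIs and 20 CPM on 1 side. MEF-2F over MEF had 3 of 4 measured members lower and 0 higher, where 14.6% of all measured genes were lower and 19% higher. MEF-3F over MEF had 4 of 4 lower and 0 higher, where 12.7% of genes were lower and 23.6% higher. PC-2F over PC had 3 of 4 lower and 0 higher, where 12.8% of genes were lower and 17.7% higher. PC-3F over PC had 2 of 4 lower and 0 higher, where 15% of genes were lower and 18.8% higher. Over pOPC, 2 of 2 measured members were higher in each converted library, beside 18.3% of genes for MEF-2F and 20% for MEF-3F, and 19.9% for PC-2F with 19% for PC-3F. Every member had under 10 UMIs in pOPC. A member could thus pass the filter there only through its level in the converted library, which favours a higher call. The members were chosen with such values known, so nothing is read from these counts.

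**Figure D2:**
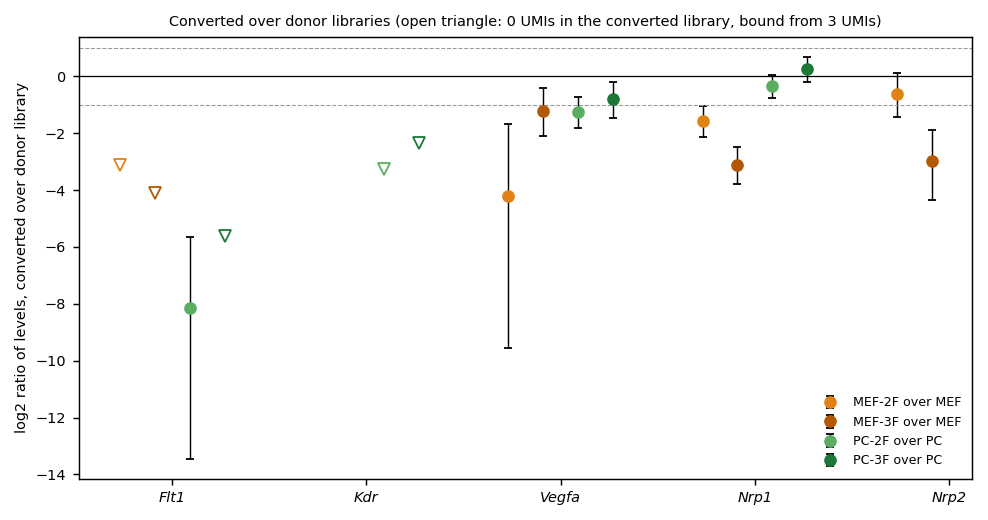
Log2 ratio of levels, converted over donor library, for each member with enough UMIs, with 95% intervals for counting error; open triangles are bounds where the converted library had 0 UMIs, and dashed lines mark 2-fold. Flt1 and Kdr lie far below 0 in each comparison shown, while Nrp1 lies near 0 in the PC series (-0.36 and 0.24 on the log2 scale with 0.5 UMIs added).

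Between 3 and 2 factors, the neuropilins and the ligand differed in opposite directions in the fibroblast series. In MEF-3F over MEF-2F, Vegfa was 8.04-fold higher (interval 1.25 to 337, from 16 against 1 UMIs), Nrp1 was 2.90-fold lower (1.63 to 5.23) and Nrp2 was 5.12-fold lower (2.04 to 14.5). That is 1 of 3 measured members higher and 2 lower, where 9.36% of genes were higher and 7.01% lower. Barcode blocks changed these calls: Vegfa was not called with either block of MEF-2F alone (1 UMI in the first and 0 in the second), nor Nrp1 with the first block of MEF-3F alone (-0.59). With 0 Nrp2 UMIs in the second block of MEF-2F, that block alone gives no direction against MEF-3F. In PC-3F over PC-2F, Nrp1 stood at 1.51-fold (1.09 to 2.10) and Vegfa at 1.37-fold (0.818 to 2.26), both under 2-fold. Between donors, MEF over PC, 2 of 5 members were higher (the neuropilins) and 2 lower (Flt1 and Kdr), where 15.9% of genes were higher and 20.5% lower.

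The joint clustering, made without the members and the pathway lists, divided several libraries, and clusters are called by number and leading genes. Most PC cells fell in cluster 6 (97 cells, led by Krt19 and Msln) or cluster 1 (184 cells, led by Krt20), and the receptors parted along that line. Flt1 was 4.04-fold lower in cluster 6 than in cluster 1 (74.7 and 302 CPM, interval 2.73 to 6.19). Kdr ran the other way and was 6.99-fold higher in cluster 6 (61.4 and 8.78 CPM, interval 3.02 to 18.1), which held 23 of the 31 Kdr UMIs of the culture. Figf, the VEGF-D ligand gene, also stood higher in cluster 6 (171 and 26.4 CPM, 6.48-fold, 4.0 to 10.8). Vegfa did not part them, at 80.1 CPM in cluster 6 and 80.2 CPM in cluster 1, and Nrp1 was at 120.1 and 81.2 CPM. Nrp2 had 0 UMIs in cluster 6 and 10 in cluster 1.

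The same clusters differed in a marker of mural cells, Pdgfrb, the PDGF-B receptor gene, with 131 CPM in cluster 6 and 430.4 CPM in cluster 1. Median depth was 3399 UMIs per cell in cluster 6 and 4249 in cluster 1. Krt19, which helped define the clusters, was at 953 and 56.0 CPM and Krt20 at 5.34 and 209.7 CPM. Cells that shared Flt1 with Kdr were few, since after thinning 1 of 267 PC cells had UMIs of both, 48 had Flt1 alone and 7 had Kdr alone. The matrix of PC joins 2 barcode blocks, and cluster 6 made up 15.4% of the first and 36.3% of the second. Kdr was at 6.26 CPM in the first block and 26.5 CPM in the second, and Figf at 25.0 and 74.2 CPM. Flt1 was alike in both (225 and 236 CPM), and within the second block alone it was 79.3 CPM in cluster 6 and 309 CPM in cluster 1.

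**Figure D3:**
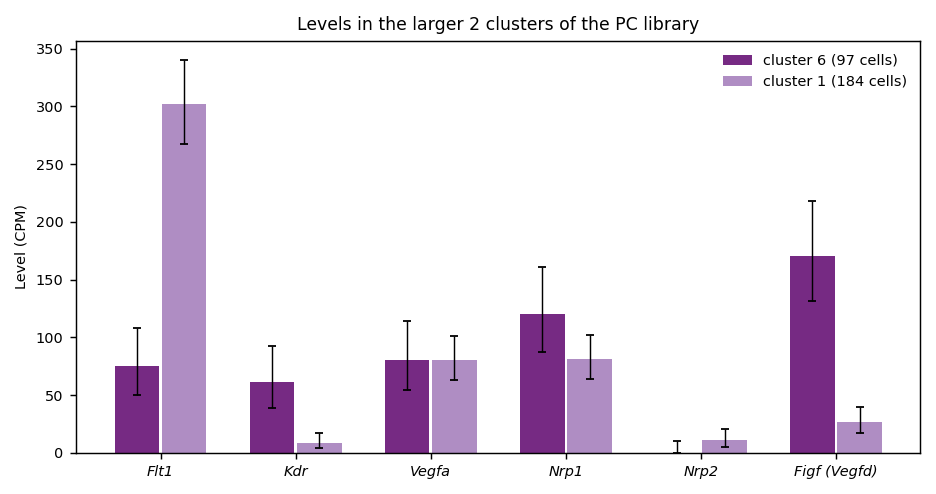
Levels in CPM in cluster 6 (97 cells, led by Krt19 and Msln) and cluster 1 (184 cells, led by Krt20) of the PC library, with 95% Poisson intervals for counting error. Flt1 is lower and Kdr and Figf are higher in cluster 6, while Vegfa stands at 80.1 and 80.2 CPM.

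Within converted cultures Nrp1 was uneven. In PC-3F, 43 of 69 Nrp1 UMIs lay in 12 cells of cluster 3 (648 CPM), which otherwise held most PC-2F cells, and 20 lay in 21 cells of cluster 9 (178 CPM), led by Mmp3, Ccl11, Ccl2 and Dcn. The 78 cells of cluster 7, the largest of PC-3F, had 2 Nrp1 UMIs (6.87 CPM), and the 35 cells of cluster 10 had 4 (24.3 CPM). The top 2 cells alone held 28 of the 69 UMIs, and without them the level in PC-3F was 66.5 CPM. PC-2F was more even, with 113 CPM in cluster 9 and 61.4 CPM in cluster 3. Cells of PC-3F with a Sox10 UMI had 20 CPM of Nrp1 (6 UMIs), and cells without one had 187 CPM, the top 2 cells among them. By cluster, the share of PC-3F cells with a Sox10 UMI was 25% in cluster 3 and 9.52% in cluster 9, where Nrp1 was higher. That share was 48.7% in cluster 7 and 62.9% in cluster 10, where Nrp1 was lower. The Sox10 level did not part the clusters in the same way. It was 271 CPM in cluster 3 (in 3 of its 12 cells), 17.8 in cluster 9, 264 in cluster 7 and 243 in cluster 10. In cluster 9 of PC-3F, Vegfa too was higher than in all other cells of the library (124 and 28.7 CPM, 4.34-fold, 1.94 to 9.65).

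Among MEF-derived cells the clusters were cluster 8, with Ednrb and Reln among its leading genes, and cluster 2, led by the cartilage collagen gene Col2a1. Nrp1 was 10.1-fold higher in cluster 8 than in cluster 2 of MEF-3F (205 and 20.3 CPM, interval 3.88 to 28.1, 16 and 144 cells). In MEF-2F the values were 158 CPM in cluster 8 and 118 CPM in cluster 2, 1.34-fold with an interval of 0.626 to 2.94. Nrp2 went the other way in MEF-2F and was 8.75-fold lower in cluster 8 (16.6 and 146 CPM, interval 2.06 to 78.4). Cluster 8 made up 42 of 82 MEF-2F cells and 16 of 161 MEF-3F cells.

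Untransduced MEF held 7 cells in cluster 3 that stood apart from the 120 cells of cluster 5. These 7 had 40 Nrp1 UMIs (1339.9 CPM), against 380 CPM in cluster 5, and no Flt1 UMI. They carried 77 UMIs of macrophage genes, among them Csf1r and C1qb, as well as 5 of Sox10, a factor that was used for conversion. With the MEF cells outside cluster 5 left out, an alternative chosen after seeing the data, the log2 ratio of Nrp1 over MEF was -1.43 in MEF-2F and -2.95 in MEF-3F, beside -1.55 and -3.07 with them, and no call over MEF changed.

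**Figure D4:**
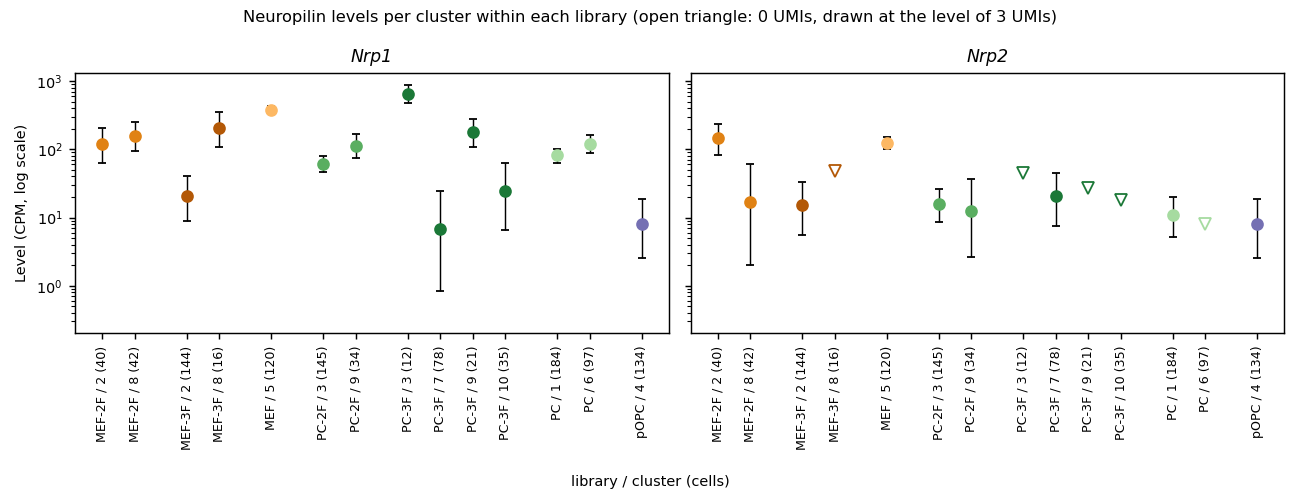
Nrp1 and Nrp2 levels (CPM, log axis) per cluster within each library, for clusters with 10 or more cells of the library, with 95% Poisson intervals; axis labels give library, cluster and cells, and open triangles mark 0 UMIs at the level of 3 UMIs. Nrp1 in PC-3F spans 6.87 CPM in cluster 7 to 648 CPM in cluster 3, and Nrp2 in MEF-2F is at 146 CPM in cluster 2.

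The other VEGF family genes did not all follow the members. Figf stood at 0 CPM for MEF-2F, 0 for MEF-3F and 108 for MEF, 1.67 for PC-2F, 6.30 for PC-3F and 68.1 for PC, and 0 for pOPC. That put MEF-2F at least 8.26-fold and MEF-3F at least 16.4-fold below MEF. PC-2F was 40.8-fold (interval 11 to 342) and PC-3F 10.8-fold (4.08 to 40.6) below PC. Its receptor gene Flt4 (VEGFR3) had 2 UMIs, both in MEF. Vegfb, a ligand of VEGFR1, stood at 17.4 CPM for MEF-2F, 41.5 for MEF-3F and 41.8 for MEF, 73.4 for PC-2F, 70.8 for PC-3F and 124.6 for PC, and 140.6 for pOPC. Vegfb was not called in any converted library over its donor. Vegfc was 2.97-fold lower in PC-2F than in PC (interval 1.42 to 6.77). Of the VEGF list, members included, MEF-2F had 4 of 6 measured genes lower and MEF-3F had 5 of 6. PC-2F had 5 of 7 lower and PC-3F had 3 of 7, and no gene was called higher. Over the donor, 12.7% to 15% of all measured genes were lower and 17.7% to 23.6% higher. Most of the lower list genes were the members, chosen with such values known. Nothing is therefore read from these counts or from the list medians. With genes at 0 UMIs set at their bound, the median log2 ratio was -2.30 for MEF-2F and -2.99 for MEF-3F, and -1.52 for PC-2F with -0.80 for PC-3F. Over all measured genes, in that order of libraries, it was 0.05, 0.27, 0.05 and 0.05.

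Class 3 semaphorins are the other ligands of neuropilins. Sema3d was 46.9-fold higher in MEF-3F than in MEF (296.8 and 6.33 CPM, interval 19.6 to 147). In PC it had 0 UMIs, and PC-2F stood at least 135-fold and PC-3F at least 120.02-fold above that limit. Sema3b was 35.5-fold higher in MEF-2F than in MEF (269 and 7.6 CPM, 15.4 to 100.3) and in PC-3F it was at least 109.9-fold above PC. Against PC-2F, PC-3F had 20.4-fold more (12 to 37.3). Sema3g was 68.6-fold higher in MEF-2F than in MEF, from 20 and 1 UMIs (interval 11 to 2844). Sema3f, by contrast, was lower in MEF-3F than in MEF, by at least 7.74-fold. Sema3a was highest in PC, at 21.7 CPM in PC-2F, 17.3 CPM in PC-3F and 193 CPM in PC. Of the semaphorin and plexin list, MEF-2F had 3 of 8 measured genes higher and 1 lower, and MEF-3F had 6 of 10 higher and 1 lower. PC-2F had 2 of 8 higher and 4 lower. In PC-3F the counts were 3 of 9 higher with 4 lower. Among all measured genes, 17.7% to 23.6% were called higher and 12.7% to 15% lower over the donor. The list's median log2 ratio over the donor was 0.36 for MEF-2F and 1.26 for MEF-3F, and -0.53 for PC-2F with 0.45 for PC-3F, beside the all-gene medians above. Sema3e was at 0 CPM for MEF-2F, 39.3 for MEF-3F and 16.5 for MEF, 22.5 for PC-2F, 3.15 for PC-3F and 105 for PC, and 0 for pOPC. Sema3c had 47.8 CPM for MEF-2F, 67.6 for MEF-3F and 63.3 for MEF, 129 for PC-2F, 44.1 for PC-3F and 20.9 for PC, and 3.16 for pOPC. Plxnd1, the receptor gene for Sema3e, was at 35.8 CPM in PC-2F and 53.5 CPM in PC-3F and had no UMI in pOPC.

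Vegfa is a target of the hypoxia-inducible factors (HIF). Of the measured genes of the hypoxia list, MEF-2F had 2 of 12 higher and 4 lower, and MEF-3F had 2 of 13 higher and 3 lower. PC-2F had 4 of 14 higher and 1 lower. In PC-3F the counts were 2 of 12 higher with 1 lower. The list's median log2 ratio was -0.46 for MEF-2F and -0.06 for MEF-3F, and 0.39 for PC-2F with 0.30 for PC-3F, to be read beside the same all-gene shares and medians. Epas1, which encodes HIF-2α, an oxygen-regulated activator of Vegfa, was at 99.2 CPM in PC-2F and 229.8 CPM in PC-3F and at 0 in PC (at least 42.7-fold and 99.0-fold higher), where it had no row. Hif1a stood between 170.2 and 246 CPM in every library. Pgk1, a glycolytic HIF target, was 8.67-fold higher in MEF-3F than in MEF-2F (interval 3.24 to 32.7), whereas Epas1 was 6.47-fold lower (8.73 and 56.5 CPM). In that comparison 3 of 13 genes of the list were higher and 2 lower, beside 9.36% and 7.01% of all genes, with a median of 0.15 beside 0.11. Ndrg1, a hypoxia-induced gene, had 222 CPM for MEF-2F and 74.2 for MEF-3F, and 31.7 for PC-2F with 15.7 for PC-3F, with no UMI in pOPC. Adm, the adrenomedullin gene, was at 23.3 CPM in PC-2F, 26.8 CPM in PC-3F and 91.3 CPM in PC, with no UMI in MEF-2F, MEF-3F or pOPC. Of the 15 or 16 measured signalling partners, 1 to 3 were called in each direction over the donors. Both median log2 ratios of that list over PC were near 0, at 0.08 in PC-2F and 0.01 in PC-3F, and those over MEF were -0.23 with 2 factors and -0.25 with 3. Of the angiopoietin list, the 1 measured gene was lower in both MEF-derived libraries, and 2 of 2 were lower in both PC-derived libraries, beside the 12.7% to 15% of all genes; with so few genes nothing is read from it. One of them, Angptl2, was at 329 CPM in MEF and 3.16 CPM in pOPC.

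Genes with the most similar patterns over the 7 libraries were ranked by the Pearson correlation of log2(CPM + 10). The points share depth and, between members, the same libraries, so the values describe these libraries only. The closest to Flt1 was Serpinb9b (r = 0.9996), at 43.0 CPM in MEF, 67.3 CPM in PC and 0 in the others, followed by Arpc2, Plaur, Slc35e4 and Ly6c1 (0.985 to 0.988). The list for Kdr was Npnt, Psmd5, Sema3a, Steap1 and Glud1 (0.983 to 0.989). For Vegfa the genes were Flii, Tes, Romo1, Elmo2 and Ndel1 (0.946 to 0.979). Nrp1 was followed by Amdhd2, Col1a1, Kdelr3, Plxnb2 and Lpp (0.965 to 0.988), among which Col1a1 encodes the main collagen of fibroblasts. Nrp2 was followed by Ski, Tm9sf4, Slc27a3, Wisp2 and Foxp2 (0.963 to 0.991). Among members, Flt1 and Kdr had r = 0.903, Nrp1 and Nrp2 had r = 0.746, and Vegfa and Nrp2 had r = -0.06.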

How the data were processed

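Per the labels' protocols, dissociated cells were captured with the ddSEQ system and 3′ libraries with UMIs were prepared. Tools in the submitters' processing notes are STAR 2.5.3a, featureCounts 1.6.1 of Subread, UMI-tools 0.5.3 and bcl2fastq 2.19.1.403, with the mm10 build. The deposited tables hold whole-number codes, not counts: each value is the place of a UMI count in the text-sorted list of counts that occur in a barcode block. No label states this. It was inferred from the values, and the counts were decoded per block, with PC, MEF-2F and MEF-3F holding 2 blocks each. Codes read with a probability above 0.99 held 92.0% to 98.7% of the UMIs. The planned tests assumed counts as deposited. Barcodes with 500 or more UMIs and at most 20% mitochondrial UMIs were kept (1124 of 1140), no doublet caller was run, and levels are CPM.

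With 1 library per population no test was made. Intervals (95%) are exact Poisson for levels, Clopper-Pearson for shares and conditional binomial for ratios, and cover counting error only. A count of 0 was set at 3 UMIs (or 3 cells, for shares) for bounds, and 0.5 UMIs were added for log2 ratios. Shares were taken after thinning to 1000 UMIs. Cells were clustered on 1500 genes, without the members and lists, by 20 principal components, 15 neighbours and Leiden resolution 1 (leidenalg 0.10.2, python-igraph 0.11.9), with Python 3.11.15, NumPy 2.4.6, pandas 2.3.3 and SciPy 1.17.1. Named were the members, the 4 leading list genes per comparison and the 5 most similar genes per member. Other genes, among them Hif1a, Vegfb, Vegfc and Flt4, were named after their values were seen, and the leading genes are not given for every comparison. Members and lists were chosen with earlier results of these data known.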

Additional observations from a re-analysis of the deposited data

Results flagged for a closer look

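Nrp1 differed between 3 and 2 factors in opposite directions in the 2 donor series. The log2 ratio was -1.52 in MEF-3F over MEF-2F and 0.60 in PC-3F over PC-2F. With 1 library each, the difference between these ratios was not tested. In PC-3F, 2 cells held 28 of the 69 Nrp1 UMIs, and without them its level was 66.5 CPM, beside 71.7 CPM in PC-2F.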

How the results depend on the processing

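No paired analysis was possible because each population is 1 library, and for the same reason no replicate could be left out. Of 187 alternative values of ratios over the donor, 174 moved by less than counting error, and 3 of 115 calls changed. Of 124 values of other ratios, 115 did, and 12 of 86 calls changed, each with a single barcode block or with the deposited values taken as counts, often because the gene was then too rare to compare. Of 70 alternative shares, 22 moved. For a ratio over the donor with 0 UMIs in the converted library, the counting interval had no lower end. A lower value of Flt1 in MEF-2F, MEF-3F or PC-3F, or of Kdr in PC-2F or PC-3F, could therefore not count as moved. All values here are log2 ratios unless named as counts. As shares of cells thinned to 1000 UMIs, Vegfa was -1.09 in MEF-2F over MEF, 0.0805 in MEF-3F over MEF (its sign turned) and 0.18 in PC-3F over PC, though at 500 and 2000 UMIs and unthinned the share in these converted libraries was lower, and Nrp1 was -2.39 in MEF-3F over MEF. With the deposited values taken as counts, Vegfa was -3.89 in MEF-3F over MEF and -2.46 in PC-2F over PC, and Nrp2 was -5.88 in MEF-3F over MEF. Block 2 of MEF-2F had 0 Nrp2 UMIs, so its ratios of -3.59 over MEF and 0.69 for MEF-3F over MEF-2F rest on the 0.5 UMIs added: at 3 UMIs it was at least 1.99-fold below MEF, and it gives no direction against MEF-3F. With block 1 of MEF-3F alone, Nrp1 was -2.14 over MEF, Nrp2 had 0 UMIs (-4.47 with 0.5 added, at least 3.66-fold lower at 3 UMIs), and Vegfa at -0.71 was no longer called. With block 1 of PC alone, Kdr was too rare to compare. Nrp1 in PC-3F over PC was -0.65 without the deepest 5% of barcodes, -0.45 as a mean over cells, and -0.46 without its top 2 cells, an alternative chosen after seeing the data. A filter of 100 CPM left 1153, 1080, 860 and 958 genes 2-fold apart over the donor (first the MEF-derived libraries with 2 and 3 factors, then the PC-derived ones), against 2533, 3104, 2546 and 2838, and 10, 9, 11 and 12 list genes, against 19, 21, 22 and 19, since fewer genes were compared. Other causes were not tested. Depth limits the low genes most: 3 UMIs are 13.0 CPM in MEF-2F and 2.32 CPM in PC.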
